A study of Mus musculus with 4 samples.

Results

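A set of 10 genes that carry, release, take up or sense sterols and lipoprotein lipid were examined in sciatic nerves of Zeb2 cKO and control mice at postnatal day 7: Apoe, Apod, Abca1, Abcg1, Lpl, Lrp1, Vldlr, Lipa, Nr1h2 and Nr1h3. They were chosen by gene symbol, as members of the pathway, with earlier results of these data known. All 10 were found among the 21965 gene symbols with a quantified transcript. The targeted gene, Zeb2, codes for a DNA-binding zinc finger protein, and cKO stands for conditional knockout. The labels give a mixed strain background for both groups and name neither the Cre line nor the deleted exons. RNA came from pooled nerves of mice labelled Zeb2 cKO and of mice labelled Control, with 2 samples per group in the labels. A single table per group was analysed here. The labels list it under both samples of its group, and it was taken to be from 1 library. On that reading, the remaining sample per group was not analysed here. No value below has a replicate, so differences are described by their size. The intervals in brackets (95%) cover counting error on estimated reads only and not the spread between pools, animals or libraries.

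Cells of the nerve take cholesterol from lipoprotein particles and also make it themselves. Apolipoproteins carry the lipid in the fluid between cells, lipoprotein receptors bring the particles into the cell, and the lysosome frees the cholesterol from its esters. The liver X receptors (LXR) are nuclear receptors that sense oxidised sterols, bind DNA with a retinoid X receptor (RXR), and switch on genes of sterol release. In rodent nerve this system is known for moving cholesterol from broken-down myelin to cells that build membrane again after injury, with apolipoprotein E made by macrophages and apolipoprotein D by endoneurial fibroblasts.

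Levels are FPKM (sequenced fragments per kilobase of a transcript, divided by library depth), which may be compared between genes of a library. Estimated depth was 20180394 reads for Zeb2 cKO nerves and 29616050 reads for control nerves. Zeb2 itself had 19.5 FPKM in Zeb2 cKO nerves and 34.4 FPKM in control nerves, 1.76-fold lower. A gene was called 2-fold apart on the scale log2((Zeb2 cKO FPKM + 1)/(control FPKM + 1)). The median of the 12903 genes with a mean of at least 1 FPKM was 0.18 on that scale, so a value near 0.18 is that of a typical gene. Myelin markers were lower for 9 of 9 measured genes (summed 1331 FPKM in Zeb2 cKO nerves and 27650 FPKM in control nerves), and muscle markers for 13 of 13 (summed 957 FPKM in Zeb2 cKO nerves and 7910 FPKM in control nerves). No marker of any list used here was listed at 0.

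The windows of sequence below are shown because they bear on the LXR system and on the receptor with the largest ratio. RefSeq promoter windows (250 bases before to 50 after a start, GRCm38.p6) were matched for 8 of the 10 genes. Only the 250 bases before the start are printed, 5′ to 3′ on the strand of the gene. Abca1 (chr4:53159896-53160145, minus strand) is a textbook LXR target. Capitals mark its 1 loose match to the LXR element, which is 2 copies of AGGTCA in 1 direction with 4 bases between them (DR4). In the windows of Nr1h3 (chr2:91195117-91195366, minus strand, before the start of its shorter transcript row) and Nr1h2 (chr7:44553966-44554215, minus strand), which encode both LXR proteins, capitals mark CAGGTG or its reverse complement CACCTG, the E-box element of the Zeb2 class of factors.
Abca1: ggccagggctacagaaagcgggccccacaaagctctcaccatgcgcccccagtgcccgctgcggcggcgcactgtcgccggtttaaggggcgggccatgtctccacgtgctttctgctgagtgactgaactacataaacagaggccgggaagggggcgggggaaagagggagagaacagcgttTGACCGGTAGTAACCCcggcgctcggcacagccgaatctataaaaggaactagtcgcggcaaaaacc
Nr1h3: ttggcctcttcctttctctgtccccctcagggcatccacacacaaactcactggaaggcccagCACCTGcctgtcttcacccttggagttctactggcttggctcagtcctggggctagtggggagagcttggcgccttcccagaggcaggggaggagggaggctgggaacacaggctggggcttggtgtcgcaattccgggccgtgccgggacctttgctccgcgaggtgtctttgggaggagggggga
Nr1h2: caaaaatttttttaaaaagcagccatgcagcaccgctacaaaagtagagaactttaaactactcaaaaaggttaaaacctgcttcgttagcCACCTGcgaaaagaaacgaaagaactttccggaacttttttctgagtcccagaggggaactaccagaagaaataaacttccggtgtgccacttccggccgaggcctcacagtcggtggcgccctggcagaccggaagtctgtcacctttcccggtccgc
The Vldlr stretch is the part of its transcript around exon 16 (chr19:27246593-27246676, GRCm38, plus strand, GENCODE M21), a coding exon of 84 bases held by the GENCODE model matched to the longer of its 2 transcript rows and not by the other model. Capitals mark the exon, with 20 bases of the neighbouring exons on each side.
Vldlr: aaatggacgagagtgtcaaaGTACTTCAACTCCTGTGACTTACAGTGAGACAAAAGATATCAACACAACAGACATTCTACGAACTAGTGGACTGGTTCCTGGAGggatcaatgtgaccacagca

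Motifs were searched on both strands of the 300-base windows. CAGGTG was in the window of Nr1h2, in 1 of the 2 windows of Nr1h3 and in 1 of the 3 windows of Apoe, and in 20.2% of all 32851 windows in the table. Counting the first base before the start as -1, it lay at -187 to -182 in Nr1h3 and at -159 to -154 in Nr1h2. Its core CACCT, which overlaps it, was in 51.9% of all windows. No window of these genes held AGGTCA (16.3% of all windows), the sterol regulatory core TCACNCCAC (1.24%), or the DR4 with up to 1 mismatch in each copy (1.75%). With up to 2 mismatches in each copy, a search added after the windows were seen, Abca1 held the DR4 at -67 to -52, and Apoe, Nr1h2 and Lipa also had a match. So loose a match was in 54.2% of all windows. A match describes letters and is not a bound site.

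Apolipoproteins were the highest of the 10 in both libraries, and the pair differed in direction. Apoe (chromosome 7, 20281593 to 20284515, mm9), the main carrier of cholesterol in the nervous system, had 545 FPKM in Zeb2 cKO nerves and 459 FPKM in control nerves, a ratio of 1.19 (1.16 to 1.21). Its log2 ratio of 0.25 was close to that of the typical gene, and only 0.744% of measured genes were above it in Zeb2 cKO nerves and 0.953% in control nerves. Apod (chromosome 16, 31296278 to 31314682), a lipocalin that binds small hydrophobic molecules and is not related to Apoe by sequence, had 111 FPKM in Zeb2 cKO nerves and 210 FPKM in control nerves. It was 1.89-fold lower (1.83 to 1.95), with a log2 ratio of -0.91, just short of 2-fold. Per Apoe, Apod stood at 0.204 in Zeb2 cKO nerves and 0.457 in control nerves, 2.24-fold lower, a comparison within each library that no scaling changes. In pooled nerve RNA, fewer cells that express a gene and less of its RNA per cell cannot be told apart. Fibroblast markers summed to 9444 FPKM in Zeb2 cKO nerves and 5711 FPKM in control nerves, with 5 of 11 genes 2-fold or more higher and 0 lower. Macrophage markers summed to 223 FPKM in Zeb2 cKO nerves and 214 FPKM in control nerves, with 0 of 13 genes 2-fold apart. Myelin and muscle markers were lower, as given above. The part of any of these lists in the Apoe and Apod values was not tested.

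**Figure D1:**
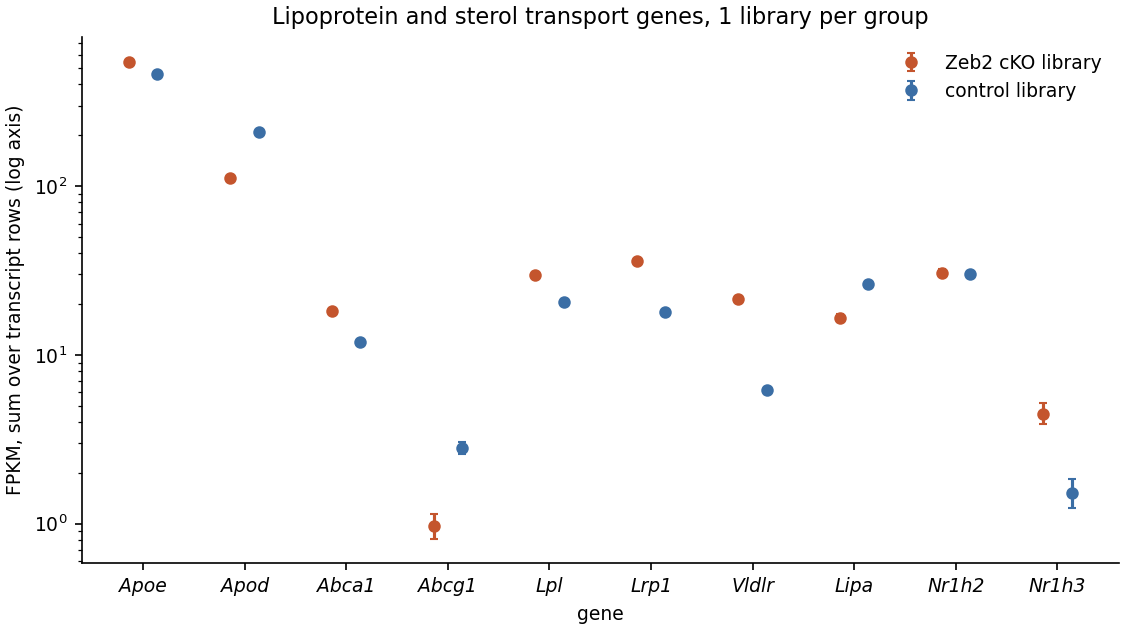
Levels of the 10 genes in Zeb2 cKO nerves (orange, left of each pair) and control nerves (blue), in FPKM on a log axis. Bars are 95% counting intervals and are often smaller than the point. Apoe and Apod lie above 100 FPKM in both libraries, and Abcg1 and Nr1h3 lie lowest and differ in opposite directions.

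The sterol exporters differed in opposite directions. Abca1 (chromosome 4, 53043661 to 53172767), which hands cholesterol to lipid-poor apolipoproteins, had 18.3 FPKM in Zeb2 cKO nerves and 11.9 FPKM in control nerves, a ratio of 1.54 (1.48 to 1.61) and a log2 ratio of 0.58. Abcg1 (chromosome 17, 31194639 to 31254926), which moves cholesterol onto particles that already carry lipid, had 0.967 FPKM in Zeb2 cKO nerves and 2.79 FPKM in control nerves, on about 136 estimated reads in Zeb2 cKO nerves and 578 in control nerves. Its FPKM ratio was 2.89-fold lower (2.39 to 3.50), and the log2 ratio of -0.95 is nearer to 0 because 1 FPKM is added to low values. Both genes are known LXR targets. Per Abca1, Abcg1 stood at 0.0528 in Zeb2 cKO nerves and 0.235 in control nerves, 4.44-fold lower. The macrophage markers given above were within 2-fold, and the myelin and muscle markers were lower. The part of any of these lists in the Abcg1 value was not tested.

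Of the receptors, Vldlr had the highest ratio of the 10 genes. Vldlr (chromosome 19, 27291510 to 27328721), which binds particles rich in apolipoprotein E and also reelin, had 21.5 FPKM in Zeb2 cKO nerves and 6.18 FPKM in control nerves. It was 3.49-fold higher (3.30 to 3.69), with a log2 ratio of 1.65, above 97.1% of measured genes. Lrp1 (chromosome 10, 126975214 to 127058204), a large endocytic receptor for many ligands, had 36.1 FPKM in Zeb2 cKO nerves and 17.9 FPKM in control nerves, a ratio of 2.02 (1.96 to 2.07) that came to 0.97 on the log2 scale, just short of 2-fold. Vldlr per Lrp1 was 0.596 in Zeb2 cKO nerves and 0.345 in control nerves, 1.73-fold higher. Skeletal muscle and endothelium are known to express Vldlr. Endothelial markers summed to 307 FPKM in Zeb2 cKO nerves and 184 FPKM in control nerves, with 0 of 10 genes 2-fold apart and a median log2 ratio of 0.72. Muscle markers were lower, as given above. Immature Schwann cell markers summed to 525 FPKM in Zeb2 cKO nerves and 104 FPKM in control nerves, with 4 of 7 measured genes 2-fold or more higher and 1 lower. Gfap made up most of the Zeb2 cKO sum, at 300 FPKM in Zeb2 cKO nerves and 0.914 FPKM in control nerves. The lower gene was Ngfr, at 15.8 FPKM in Zeb2 cKO nerves and 42.8 FPKM in control nerves. Perineurial markers summed to 296 FPKM in Zeb2 cKO nerves and 104 FPKM in control nerves, with 5 of 7 genes 2-fold or more higher and 0 lower. Fibroblast markers were higher, as given beside Apod. The part of any of these lists in the Vldlr and Lrp1 values was not tested.

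The longer Vldlr row made up most of that difference. It had 17.1 FPKM in Zeb2 cKO nerves and 3.38 FPKM in control nerves, a ratio of 5.05. The shorter row had 4.46 FPKM in Zeb2 cKO nerves and 2.80 FPKM in control nerves, a ratio of 1.60. The longer one therefore held 79.3% of the gene's FPKM in Zeb2 cKO nerves and 54.8% in control nerves. Exon 16 encodes the O-linked sugar domain that stands next to the membrane in the receptor. The rows, 8308 and 8224 bases long, share their start and end in the tables and differ by 84 bases, the length of that exon. The GENCODE models matched to them also differ in how far the first and last exons reach. Reads in shared exons were split between the rows by the authors' software, so no counting interval is given for either.

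**Figure D2:**
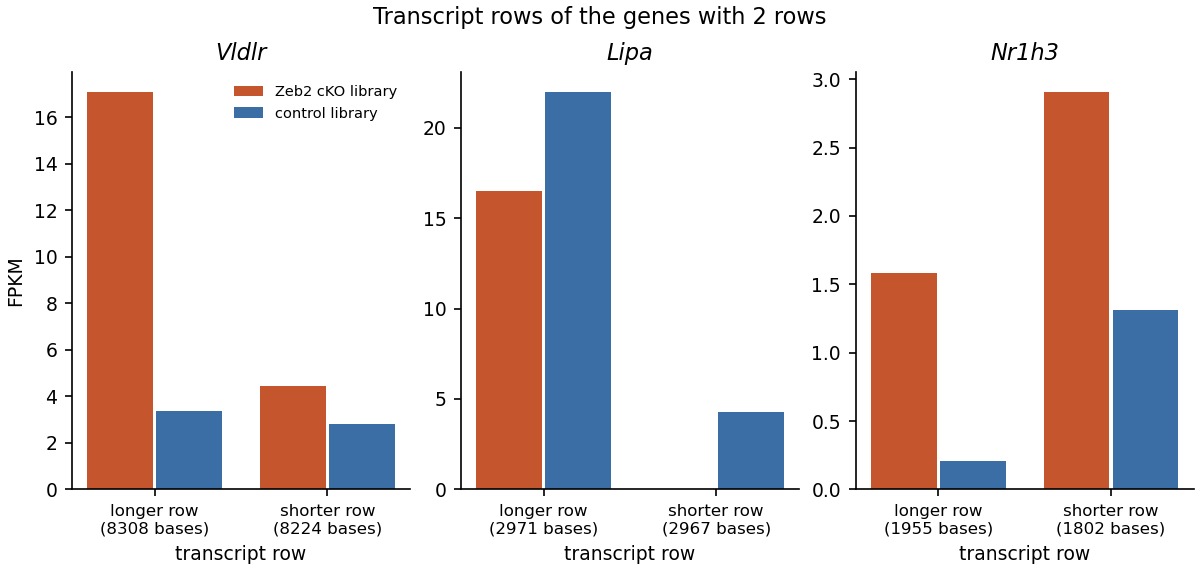
FPKM of each transcript row of Vldlr, Lipa and Nr1h3 (lengths in bases) in Zeb2 cKO nerves (orange, left of each pair) and control nerves (blue), on axes that start at 0. The longer Vldlr row is at 17.1 FPKM in Zeb2 cKO nerves and 3.38 FPKM in control nerves, and the shorter Lipa row is at 0.0019 FPKM in Zeb2 cKO nerves.

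The lipases also went in opposite directions. Lpl (chromosome 8, 71404454 to 71430831), the secreted lipase that releases fatty acids from the triglyceride of lipoproteins, had 29.7 FPKM in Zeb2 cKO nerves and 20.7 FPKM in control nerves, a ratio of 1.44 (1.36 to 1.51) and a log2 ratio of 0.50. Muscle and fat are rich in Lpl. Of 8 measured adipocyte markers 4 lay 2-fold or more up and 0 down, with a sum of 534 FPKM in Zeb2 cKO nerves and 222 FPKM in control nerves. Fabp4 made up most of both sums, at 468 FPKM in Zeb2 cKO nerves and 194 FPKM in control nerves. Muscle markers were lower, as given above, and the part of either marker list in the Lpl value was not tested. Lipa (chromosome 19, 34566806 to 34601964), the acid lipase that splits cholesteryl esters and triglyceride in the lysosome, had 16.5 FPKM in Zeb2 cKO nerves and 26.2 FPKM in control nerves. It was 1.59-fold lower (1.49 to 1.70), with a log2 ratio of -0.64. Myelin markers were also lower, as given above. The part of the myelin, muscle and macrophage markers in the Lipa value was not tested. Per Lpl, Lipa stood at 0.555 in Zeb2 cKO nerves and 1.27 in control nerves.

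The Lipa rows differ by 4 bases in length. The longer row had 16.5 FPKM in Zeb2 cKO nerves and 22.0 FPKM in control nerves, 1.33-fold lower. The shorter row was at 0.0019 FPKM in Zeb2 cKO nerves, under 1 estimated read, and at 4.27 FPKM in control nerves, where it held 16.3% of the gene's FPKM. The split rests on reads across a difference of 4 bases, so no fold is given for the shorter row.

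The LXR genes differed from each other. Nr1h2 (chromosome 7, 51805003 to 51809293), which encodes the widely expressed LXR-beta, had 30.7 FPKM in Zeb2 cKO nerves and 30.1 FPKM in control nerves, a ratio of 1.02 whose counting interval (0.954 to 1.09) included 1. Nr1h3 (chromosome 2, 91024218 to 91035273), which encodes LXR-alpha, known from liver, fat and macrophages, had 4.49 FPKM in Zeb2 cKO nerves and 1.52 FPKM in control nerves, on about 202 estimated reads in Zeb2 cKO nerves and 98 in control nerves. It was 2.96-fold higher (2.31 to 3.81), with a log2 ratio of 1.12. Nr1h3 per Nr1h2 was 0.146 in Zeb2 cKO nerves and 0.0504 in control nerves, so LXR-beta transcripts were the more abundant in both. Adipocyte and macrophage markers had the sums given above, and their part in the Nr1h3 value was not tested. The E-box printed above is in the window of Nr1h2 and in 1 of the 2 windows of Nr1h3, the one before the start of its shorter row. It is also in a window of Apoe and in 20.2% of all windows, and its part in these values was not tested. Of the 2 Nr1h3 rows, the shorter had 2.91 FPKM in Zeb2 cKO nerves and 1.31 FPKM in control nerves, and the longer had 1.58 FPKM in Zeb2 cKO nerves and 0.207 FPKM in control nerves, where about 14 reads were assigned to it. The 2 Nr1h3 windows overlap. The one before the start of the longer row (chr2:91195036-91195285) held no CAGGTG because the printed E-box lies farther upstream than that window reaches. Row ratios were 2.22 for the shorter row and 7.66 for the longer row, with reads in shared exons split between the rows by the authors' software. In the GENCODE annotation the first exons of these rows are untranslated and start at different bases.

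Of the 10 genes, 2 (Vldlr and Nr1h3) were 2-fold or more higher in Zeb2 cKO nerves, beside 8.59% of the 12903 measured genes, and 0 were 2-fold or more lower, beside 6.25%. The median log2 ratio of the 10 was 0.37, beside 0.18 for all measured genes. Because the 10 were chosen with earlier results of these data known, these counts and medians are a description and no test. Their FPKM summed to 815 in Zeb2 cKO nerves and 786 in control nerves, most of it Apoe. On the plain FPKM scale Lrp1 and Abcg1 were also past 2-fold, and with the Zeb2 cKO values divided by the fold of the median gene, 1.13, Nr1h3 was just short of 2-fold (log2 ratio 0.98) while Apod and Abcg1 were past it (-1.09 and -1.03). Nr1h2 then had a log2 ratio of -0.15. On that scale 1 member was higher, beside 6.26% of measured genes, and 2 were lower, beside 7.34%. After scaling to the upper quartile 2 were higher, beside 7.19%, and 1 was lower, beside 6.8%. With 0.1 FPKM added to both values 3 members were higher, beside 12.1%, and 1 was lower, beside 7.04%. With 5 FPKM added 1 was higher, beside 3.7%, and 0 were lower, beside 4.1%. With a mean of at least 5 FPKM required 1 was higher, beside 8.12%, and 0 were lower, beside 6.79%. With the top transcript row of each gene 1 was higher, beside 8.93%, and 0 were lower, beside 6.4%. At 1.5-fold 3 members were higher, beside 19.7%, and 3 were lower, beside 9.81%. At 3-fold 1 was higher, beside 3.11%, and 0 were lower, beside 3.54%. No other gene's locus in the tables overlapped that of any of the 10.

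**Figure D3:**
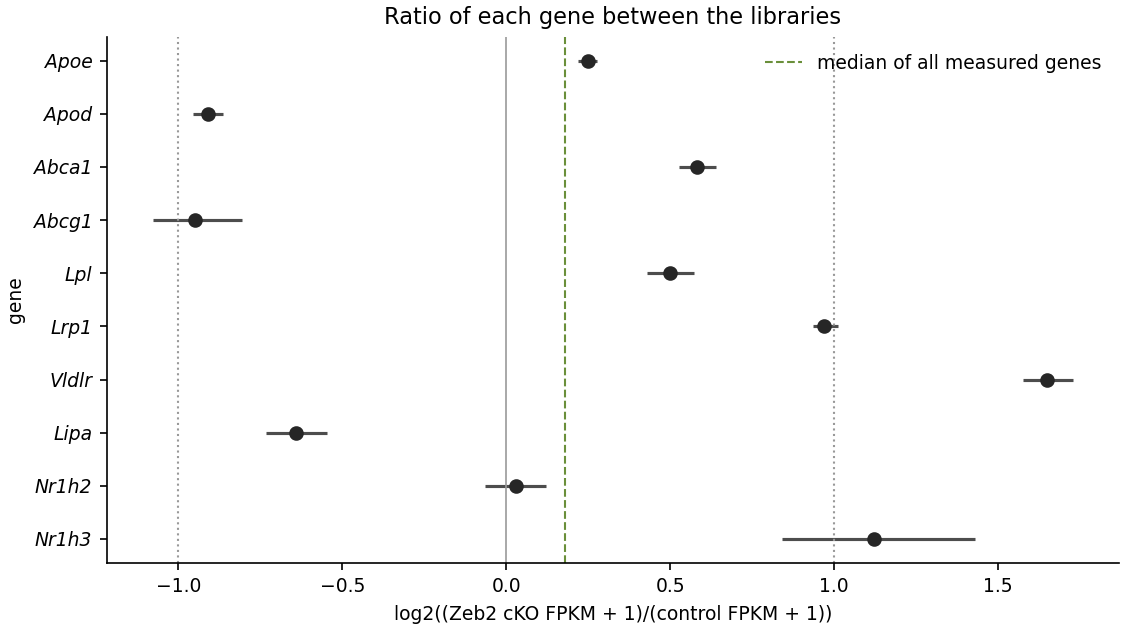
Ratio of each of the 10 genes between the libraries, as log2((Zeb2 cKO FPKM + 1)/(control FPKM + 1)), with 95% counting intervals as bars. Dotted lines mark 2-fold in either direction, and the dashed line marks the median of all measured genes, 0.18. Vldlr and Nr1h3 lie past the upper line, Lrp1 just inside it, and Apod and Abcg1 just inside the lower one. The intervals of Lrp1, Abcg1 and Nr1h3 cross a 2-fold line.

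The order of levels differed below the apolipoproteins. In Zeb2 cKO nerves Apoe and Apod were followed by Lrp1, Nr1h2, Lpl, Vldlr, Abca1, Lipa, Nr1h3 and Abcg1. The counting intervals of Nr1h2 (29.2 to 32.4 FPKM) and Lpl (28.6 to 30.8 FPKM) overlapped there, and those of the other neighbours did not. In control nerves Apoe and Apod were followed by Nr1h2, Lipa, Lpl, Lrp1, Abca1, Vldlr, Abcg1 and Nr1h3, with no overlap between neighbours. Vldlr stood higher in the Zeb2 cKO order than in the control order, and Lipa stood lower. Abcg1 and Nr1h3 exchanged the last places.

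Other genes of the pathway were read from 7 lists of 138 genes, of which 95 reached a mean of 1 FPKM. Of these, 9 were 2-fold or more higher, 9 were lower and 77 lay within 2-fold, with a median log2 ratio of 0.12. Among all 12903 measured genes 8.59% were higher and 6.25% were lower, the shares to set beside the counts of each list. Among 19 measured receptors and receptor partners, 3 were higher and the median was 0.43. The higher ones were Lrp5 and Lrp4, which serve Wnt and agrin signalling, at 18.7 and 13.7 FPKM in Zeb2 cKO nerves and 7.19 and 6.14 FPKM in control nerves, and the sorting receptor Sorl1, at 3.52 FPKM in Zeb2 cKO nerves and 0.803 FPKM in control nerves, named after its values were seen because it lay below the level set for naming. The lysosomal membrane receptor Scarb2 had the highest level, 57.1 FPKM in Zeb2 cKO nerves and 53.6 FPKM in control nerves.

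Other apolipoproteins and lipid carriers were mostly under the filter, as 6 of 22 were measured. Of those, 0 were 2-fold apart (median -0.10), and the phospholipid transfer protein Pltp was the highest, at 41.6 FPKM in Zeb2 cKO nerves and 26.0 FPKM in control nerves. Of 15 measured lipid ABC transporters, Abca8b was 2-fold or more higher, at 37.4 FPKM in Zeb2 cKO nerves and 17.7 FPKM in control nerves. Abca2, known from myelinating glia, was 2.20-fold lower, at 17.2 FPKM in Zeb2 cKO nerves and 37.8 FPKM in control nerves (median of the list 0.27). Abca8a, a close relative of Abca8b, had the highest level, 104 FPKM in Zeb2 cKO nerves and 53.3 FPKM in control nerves.

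Among 9 lipases and partners, Mgll, the lipase of monoglycerides, was 4.83-fold lower, at 29.0 FPKM in Zeb2 cKO nerves and 140 FPKM in control nerves. Angptl4, a secreted inhibitor of Lpl, and Lipe, the hormone-sensitive lipase of fat, were higher, at 23.7 and 11.1 FPKM in Zeb2 cKO nerves and 9.96 and 4.48 FPKM in control nerves (median -0.07). Gpihbp1, which holds Lpl on the capillary wall, had 22.1 FPKM in Zeb2 cKO nerves and 17.0 FPKM in control nerves. Lpl per Gpihbp1 was 1.35 (1.22 to 1.49) in Zeb2 cKO nerves and 1.22 (1.10 to 1.34) in control nerves, with overlapping intervals.

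Inside the cell, 1 of 23 measured genes of lysosomal and intracellular sterol transport was 2-fold or more higher and 1 was lower, with a median of 0.02. Soat1, which turns cholesterol back into esters, had 12.8 FPKM in Zeb2 cKO nerves and 5.14 FPKM in control nerves. Osbpl1a, an oxysterol-binding protein relative, was 4.18-fold lower, at 7.42 FPKM in Zeb2 cKO nerves and 31.0 FPKM in control nerves. The lysosomal membrane protein Lamp1 had the highest level, 245 FPKM in Zeb2 cKO nerves and 347 FPKM in control nerves.

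Among 11 LXR partners and oxysterol enzymes, 0 were 2-fold or more higher and 2 were lower (median 0.18). Rxrg, an RXR gene, had 1.31 FPKM in Zeb2 cKO nerves and 9.81 FPKM in control nerves, 7.49-fold lower, while Rxrb, the highest of the list, had 21.9 FPKM in Zeb2 cKO nerves and 19.1 FPKM in control nerves. Cyp7b1, which breaks down oxysterols, had 7.04 FPKM in Zeb2 cKO nerves and 22.4 FPKM in control nerves. Of 15 other known LXR targets, 2 were higher and 3 were lower (median 0.16). Arl4c and Smpdl3a were at 9.10 and 21.1 FPKM in Zeb2 cKO nerves and 3.0 and 7.78 FPKM in control nerves. The fatty acid synthesis genes Fasn, Acaca and Scd2 were lower, at 17.2, 9.20 and 421 FPKM in Zeb2 cKO nerves and 51.2, 21.8 and 909 FPKM in control nerves.

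**Figure D4:**
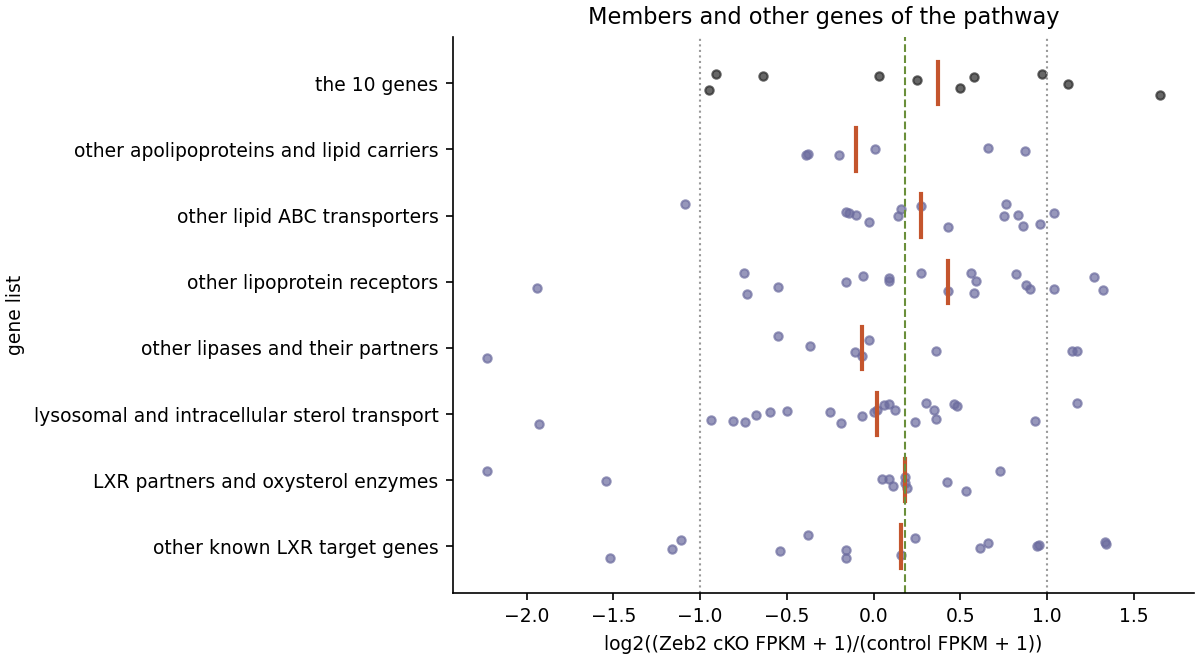
Log2 ratio of each measured gene (points, spread up and down only for sight) in the 10 genes and in the 7 lists of other pathway genes, with each list's median as an orange bar. Dotted lines mark 2-fold and the dashed line the median of all measured genes, 0.18. List medians run from -0.10 to 0.43, and single genes reach past 2-fold in both directions.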

How the data were processed

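RNA of pooled sciatic nerves was sequenced from TruSeq libraries, per the labels. The submitters' processing notes name CASAVA, TopHat, Cufflinks, Cuffdiff and mm9, and versions are not given in the sources used here. The deposited tables give FPKM, coverage (signal per base, per the file headers) and a quantification status for each RefSeq-named transcript. In the labels, 1 table stands under the pair of samples of each group, so it was used for the group.

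Rows with status OK in both tables were summed per symbol (Python 3.11.15, pandas 2.3.3). Reads were estimated as coverage times length over 52.6 bases, the median of 479 values between 20 and 75 bases in genes with 1 row above 2000 bases. Control was 1.47 times as deep. Intervals are exact Poisson for levels and Clopper-Pearson for ratios (scipy 1.17.1). With 1 library per group no test was made. Code was tested on simulated data. Alternatives changed the pseudocount, filter, scaling, row choice and threshold. Members and lists were chosen with earlier results of these data known. Each list names up to 3 genes per direction that reached 5 FPKM in either library, and its highest gene. Of 144 list entries 1 matched through a RefSeq name. Table positions are mm9, counted from 1, and sequences are GRCm38. Strand was not used. Some genes of the lists are not reported here.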

Additional observations from a re-analysis of the deposited data

How the results depend on the processing

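No paired analysis was possible because there was 1 library per group, and leaving out a library would leave no comparison. Across 8 settings in which the ratio was computed, 9 of the 10 genes kept the sign of their log2 ratio wherever they passed the filter, and Nr1h2 did not (-0.15 to 0.03). Another filter or row status left the ratios of these genes as they were, and another added value cannot change a sign. Only the rescalings and the choice of row could have changed it. The other ranges that matter were 1.25 to 2.04 for Vldlr, 0.54 to 1.5 for Nr1h3, 0.80 to 1.01 for Lrp1, -1.09 to -0.89 for Apod and -1.44 to -0.38 for Abcg1. Counts of genes 2-fold or more apart are given next where they differed by more than 1.5 times from those of the report, and smaller differences in a list's count are left out. With 0.1 FPKM added, 1 member (Abcg1) was lower and 3 were higher, and 1 other apolipoprotein was higher. With 5 FPKM added, 1 member (Vldlr) was higher, 1 LXR target and 1 gene of all lists together were higher, 0 ABC transporters were apart, and 0 receptors, 0 lipases and 0 intracellular genes were higher. Without the filter 1 apolipoprotein was higher and 2 ABC transporters were lower, and with a mean of at least 5 FPKM 1 member was higher. After rescaling to the median gene 2 members were lower and 1 was higher, 0 ABC transporters and 0 lipases were higher, 2 intracellular genes were lower, and 5 genes of all lists were higher. After rescaling to the upper quartile 1 member was lower, 0 ABC transporters were higher and 2 intracellular genes were lower. With the top transcript row of each gene 1 member was higher, since the top Nr1h3 row had a log2 ratio of 0.76.

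At 1.5-fold 3 members were higher and 3 were lower, as were 3 receptors, 6 intracellular genes and 16 genes of all lists, while 2 apolipoproteins, 6 ABC transporters, 7 receptors, 2 intracellular genes, 1 LXR partner, 6 LXR targets and 25 genes of all lists were higher. At 3-fold 1 member was higher, 1 LXR partner and 4 genes of all lists were lower, 0 ABC transporters and 0 LXR targets were apart, and 0 receptors, lipases, intracellular genes and genes of all lists were higher. Among all measured genes 19.7% were higher and 9.81% were lower at 1.5-fold, and 3.11% were higher and 3.54% were lower at 3-fold. Moves under another threshold, filter or added value follow from where the line is drawn, and rescaling divides every Zeb2 cKO value by the same factor.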

Other observations

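A cluster of ABC transporter genes on chromosome 11 of mm9 had ratios near 2-fold in 4 of its 5 genes. Abca8b (109794720 to 109857130), Abca8a (109886948 to 109957251), Abca9 (109962136 to 110029467) and Abca6 (110038136 to 110113090) were at 37.4, 104, 28.5 and 10.1 FPKM in Zeb2 cKO nerves and at 17.7, 53.3, 15.2 and 5.59 FPKM in control nerves. Their log2 ratios were 1.04, 0.96, 0.86 and 0.76. The fifth, Abca5 (110130683 to 110199030), had 3.43 FPKM in Zeb2 cKO nerves and 3.87 FPKM in control nerves, a log2 ratio of -0.14. Abca8a and Abca8b are close relatives in sequence, so the split of reads between them is uncertain. The group was singled out after its values were seen, and 5 of 11 fibroblast markers were 2-fold or more higher in the same library, and their part in these values was not tested.

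Other receptor genes of the Lrp name, chosen after their values were seen, had log2 ratios of 0.58 for Lrp3, 0.90 for Lrp6, 0.88 for Lrp10 and 0.82 for Lrp12, all within 2-fold. Lrp11 had 2.00 FPKM in Zeb2 cKO nerves and 3.98 FPKM in control nerves, a log2 ratio of -0.73. Srebf1, an LXR target that controls lipid synthesis, had 43.6 FPKM in Zeb2 cKO nerves and 22.1 FPKM in control nerves, a log2 ratio of 0.95, while Fasn and Acaca, which its product is known to switch on, were lower.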
